A study of Mus musculus with 24 samples.

Results

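The miR-200 family was followed through miRNA-Seq libraries from neonatal mouse brain after hypoxic-ischemic brain injury (HIBI). Its members were taken by name, as the rows of the deposited count tables for mmu-miR-200a-3p, mmu-miR-200b-3p, mmu-miR-200b-5p, mmu-miR-200c-3p, mmu-miR-141-3p and mmu-miR-429-3p, written without the species prefix from here on. These are 6 of the 1531 mouse mature miRNAs in the tables. No threshold on a measured value picked them, but earlier results of these data were known when they were chosen. The pups were CD1 mice of both sexes at postnatal day 9. In the HIBI group the right common carotid artery was closed, and after 2 h with the dam the pups breathed 8% oxygen for 30 min. Sham pups had the anesthesia, analgesia and neck dissection without closure of the artery, and were kept in normal air for the same time. Right cerebellum, right striatum/thalamus and right cortex were taken 30 min later from each of 4 HIBI pups (pups 1, 4, 5 and 7) and 4 sham pups (pups 2, 3, 6 and 8), which gave 24 libraries. The model closes the artery of one side, so by the study's account the forebrain regions met low oxygen and low blood flow and the cerebellum low oxygen alone, and there was no group with hypoxia alone.

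MiR-200 miRNAs are best known from epithelia, where they hold down the transcription factors Zeb1 and Zeb2 and so help cells keep epithelial features. In the nervous system they are known from the olfactory system, where they take part in the making of sensory neurons. A miRNA finds its targets mainly through its seed, the run of bases near its 5′ end, so members with different seeds can act on different messenger RNAs.

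The mature sequences are shown because the family falls into groups by seed. Each is from RefSeq and is written 5′ to 3′, with the seed (bases 2 to 8) in capitals. All 6 members were matched in RefSeq.

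miR-200b-3p: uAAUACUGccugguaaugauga
miR-200c-3p: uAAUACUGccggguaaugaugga
miR-429-3p: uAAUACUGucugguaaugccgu
miR-200a-3p: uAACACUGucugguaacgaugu
miR-141-3p: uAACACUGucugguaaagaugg
miR-200b-5p: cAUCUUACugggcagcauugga

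MiR-200b-3p, miR-200c-3p and miR-429-3p share a seed, and miR-200a-3p and miR-141-3p share another. The seeds of these 2 groups differ at 1 base, C4U from miR-200a-3p to miR-200b-3p, with positions counted from 1 at the 5′ end. MiR-200b-5p is the other strand of the miR-200b hairpin and has a seed of its own within this list. Over the first 22 bases miR-200b-3p and miR-200c-3p differed at 2 positions (U11G and A22G), and miR-200a-3p and miR-141-3p also at 2 (C17A and U22G). How the authors treated reads that match more than one entry is not given in the sources used here.

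The hairpins lie at 2 places in the mouse genome (GRCm38.p6, minus strand in both). Mir200b (chr4:156055681-156055750), Mir200a (chr4:156054896-156054985) and Mir429 (chr4:156053905-156053987) follow each other with 695 and 908 bases between them, inside an intron of the coding gene Ttll10. The long non-coding transcript Gm13648 also covers them, with Mir429 in an exon and the other hairpins in an intron. Mir200c (chr6:124718322-124718390) and Mir141 (chr6:124717914-124717985) are 336 bases apart, inside an intron of the antisense gene Gm15884. The nearest coding gene there is Phb2, on the opposite strand, 964 bp from Mir141 and 1372 bp from Mir200c.

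The libraries held between 1254185 and 3406624 mouse miRNA counts, so that 1 read was worth 0.294 to 0.797 CPM, the usual unit of counts scaled to library size. Levels below are CPM after TMM scaling over the 24 libraries. The tissue labels were in keeping with miRNAs that mark the hindbrain: the summed level of miR-10a-5p, miR-10b-5p, miR-196a-5p and miR-196b-5p was 483 to 1837 CPM in cerebellum and 37.2 to 113 CPM in cortex. Striatum/thalamus lay between them, at 117.1 to 267.5 CPM. The sum was nearly all miR-10a-5p and miR-10b-5p, since miR-196a-5p and miR-196b-5p reached only 1.83 and 1.57 CPM in cerebellum. The neuronal miRNAs miR-124-3p and miR-9-5p summed to 58474 CPM or more in every library. Tissue pieces were sequenced whole, so a low level can stand for fewer cells of a type or for less RNA per cell, and these cannot be told apart.

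The family was a minor part of these brain libraries and was led by the miR-200b hairpin. All 6 members together gave 4615 reads. MiR-200b-3p gave 2105 of them (45.6%), miR-200c-3p 1313 (28.4%), miR-429-3p 882 (19.1%), miR-200a-3p 179 (3.88%) and miR-200b-5p 135 (2.93%). MiR-141-3p gave 1 read. By average level over the 24 libraries miR-200b-3p stood at place 292 of 1531 with 39.9 CPM, miR-200c-3p at 336 with 25.2 CPM and miR-429-3p at 380 with 16.0 CPM. These 3 members passed the study's level filter of an average above 10 CPM and the other 3 did not, but all members were kept in the fits whatever their level.

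MiR-141-3p was almost missing although its hairpin neighbors that of miR-200c. Its only read was in the striatum/thalamus of HIBI pup 7, a library with 196 reads of miR-200c-3p. The other 23 libraries held 0 reads of it in 51606683 counts, which allows a level of up to 0.0581 CPM. This limit covers counting error only. No fold change was computed for it.

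The abundant members were lower in cerebellum than in the forebrain regions. The summed level of the 6 members was 36.3 ± 9.52 CPM in cerebellum, 131 ± 43.3 CPM in striatum/thalamus and 92.8 ± 43.4 CPM in cortex (mean ± SD, n = 8 libraries each). No cerebellar library reached the lowest forebrain library: cerebellum ran from 24.1 to 50.5 CPM and the forebrain libraries from 60.8 to 188 CPM. In all 8 pups the sum was higher in both forebrain regions than in the cerebellum of the same pup.

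**Figure D1:**
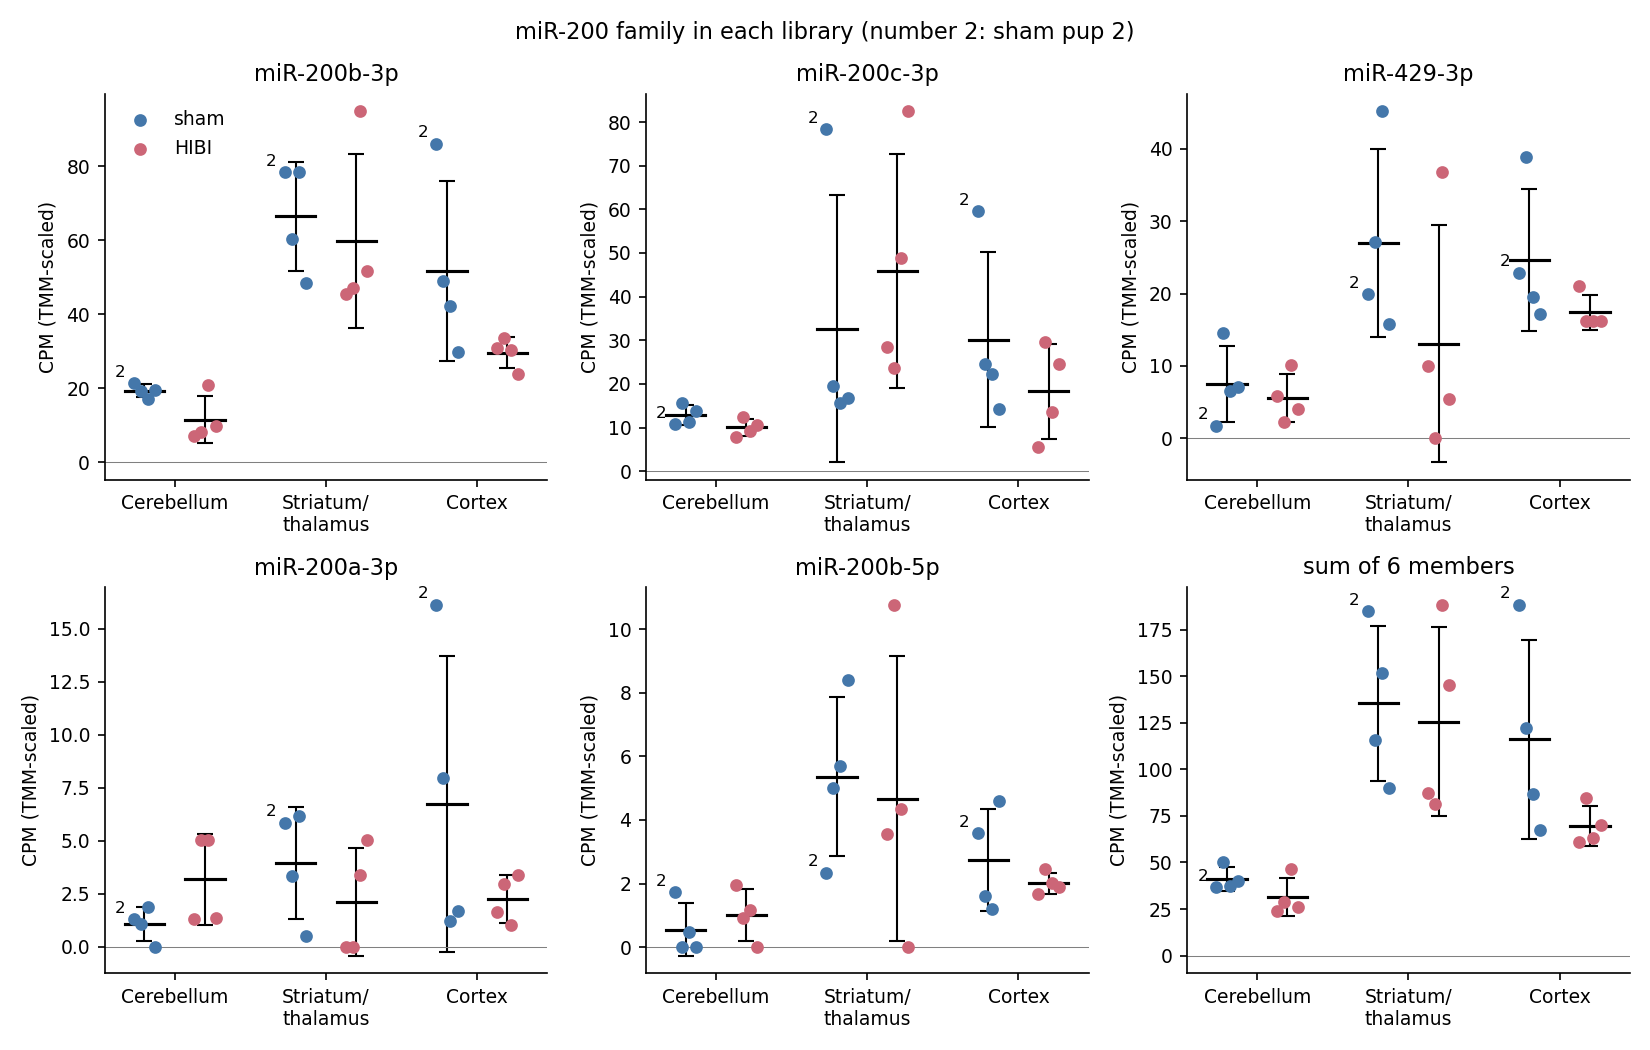
Level of 5 members and of the family sum (y axis, TMM-scaled CPM) in each of the 24 libraries by region (x axis), with sham in blue and HIBI in red. Bars are group means and whiskers SD (n = 4), and the number 2 marks the libraries of sham pup 2. MiR-200b-3p in cerebellum lies at 21.3 CPM or less and in the forebrain at 23.8 CPM or more, and sham and HIBI points overlap in every panel and region.

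MiR-200b-3p, the most abundant member, had the clearest regional pattern. In cerebellum it was at 21.3, 19.3, 16.9 and 19.6 CPM in sham pups 2, 3, 6 and 8 and at 7.18, 8.22, 20.9 and 9.80 CPM in HIBI pups 1, 4, 5 and 7. In striatum/thalamus it was at 78.4, 60.4, 78.5 and 48.5 CPM in the sham pups and at 45.4, 47.2, 94.9 and 51.8 CPM in the HIBI pups, in the same order. In cortex it was at 86.1, 49.0, 42.2 and 29.6 CPM in the sham pups and at 31.0, 33.5, 30.3 and 23.8 CPM in the HIBI pups. Cerebellum did not overlap with either forebrain region, while striatum/thalamus and cortex overlapped. The share of all miRNAs without such overlap was not counted, here or for the other members and the family sum. Regional differences were common. Of 438 miRNAs, 315 differed between striatum/thalamus and cerebellum and 295 between cortex and cerebellum at an unadjusted edgeR p under 0.05. MiR-200b-3p was 4.19-fold higher in striatum/thalamus than in cerebellum (log2 difference 2.07, SE 0.25, adjusted p = 1.04e-07 by edgeR's quasi-likelihood test) and 2.60-fold higher in cortex than in cerebellum (1.38, SE 0.25, adjusted p = 4.34e-05 by the same test). It was higher in all 8 pups in both comparisons.

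MiR-200c-3p, from the other locus, followed the same order of regions with a wider spread. In cerebellum the sham libraries held 10.9, 15.6, 11.3 and 13.7 CPM and the HIBI libraries 7.83, 12.3, 9.28 and 10.7 CPM. In striatum/thalamus the sham libraries held 78.4, 19.6, 15.7 and 16.8 CPM and the HIBI libraries 28.4, 23.6, 48.9 and 82.5 CPM. In cortex the sham libraries held 59.7, 24.5, 22.3 and 14.2 CPM and the HIBI libraries 5.53, 29.6, 13.5 and 24.6 CPM. Cerebellum and striatum/thalamus did not overlap, but cortex reached below the cerebellar range in HIBI pup 1. The level in striatum/thalamus was 3.39-fold that in cerebellum (log2 1.76, SE 0.39, edgeR adjusted p = 3.47e-04), and sham pup 2 and HIBI pup 7 stood well above the other 6 libraries there. Without those 2 libraries the log2 difference was 1.02 and was still called. The cortex was 2.06-fold above cerebellum (log2 1.04, SE 0.39, edgeR adjusted p = 0.0230), a call that was lost without the cortex library of pup 2 (log2 0.76) and without all libraries of pup 2, 4 or 7 (0.71, 0.93 and 0.97). It was also lost in sham libraries alone (1.21).

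MiR-429-3p lies on chromosome 4 with miR-200b and miR-200a and has the seed of miR-200b-3p. In cerebellum it was at 1.74, 14.5, 6.59 and 7.04 CPM in sham pups and at 5.87, 2.28, 10.1 and 4.01 CPM in HIBI pups. In striatum/thalamus it was at 19.9, 27.1, 45.2 and 15.8 CPM in sham pups and at 9.94, 0, 36.8 and 5.47 CPM in HIBI pups. In cortex it was at 22.9, 38.8, 19.6 and 17.1 CPM in sham pups and at 21.0, 16.2, 16.1 and 16.3 CPM in HIBI pups. Cortex and cerebellum did not overlap, and striatum/thalamus covered the whole cerebellar range. The cortex was 3.20-fold above cerebellum (log2 1.68, SE 0.49, edgeR adjusted p = 0.00497) and striatum/thalamus 2.93-fold (log2 1.55, SE 0.50, edgeR adjusted p = 0.00766).

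The 0 for miR-429-3p in the striatum/thalamus of HIBI pup 4 stood in a library of 1753639 counts that held 70 reads of miR-200b-3p, from the same cluster of hairpins. A count of 0 there allows up to 1.71 CPM. In the other 7 striatum/thalamus libraries the member was between 5.47 and 45.2 CPM. The library of pup 4 also stood outside the other 7 in endocrine miRNAs (1810 CPM against 4862 to 8898 CPM) and in erythrocyte miRNAs (2642 CPM against 943 to 1672 CPM). Among the endocrine miRNAs, miR-7a-5p was low there (1082 CPM against 3410 to 6179 CPM), but miR-375-3p, at 379.2 CPM, was within the range of the others. The erythrocyte miR-451a was not raised there, since the HIBI libraries reached 125.5 CPM at most and the sham libraries 355.1 CPM. The part of these in the level of miR-429-3p was not tested.

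MiR-200a-3p carries the other seed. In cerebellum it was at 1.30, 1.08, 1.88 and 0 CPM in sham pups and at 1.31, 5.03, 5.03 and 1.34 CPM in HIBI pups, which is 13 reads at most. In striatum/thalamus it was at 5.85, 3.33, 6.19 and 0.495 CPM in sham pups and at 0, 0, 3.39 and 5.05 CPM in HIBI pups. In cortex it was at 16.2, 7.96, 1.21 and 1.67 CPM in sham pups and at 1.66, 2.96, 1.01 and 3.41 CPM in HIBI pups. All regions overlapped. Its differences from cerebellum were 1.04 (95% interval -0.32 to 2.41) in cortex and 0.71 (-0.69 to 2.11) in striatum/thalamus on the log2 scale, and neither was called by edgeR. Among sham libraries alone the cortex difference was larger, at 2.61, and was called.

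MiR-200b-5p, the less used strand of its hairpin, was seen in 20 of 24 libraries. It ranged from 0 to 1.96 CPM in cerebellum, from 0 to 10.8 CPM in striatum/thalamus and from 1.21 to 4.59 CPM in cortex. The edgeR log2 differences from cerebellum were 2.65 (SE 0.64, adjusted p = 8.10e-04) for striatum/thalamus and 1.58 (SE 0.68, adjusted p = 0.0435) for cortex. The cerebellar side of both rests on 13 reads, and without pup 2 the differences were 3.55 and 2.27. The cortex call was lost when all libraries of pup 3, 4, 5, 6, 7 or 8 were left out (log2 1.55, 1.51, 1.64, 1.67, 1.39 and 1.16) and without the cortex library of pup 2 (1.503). It was also lost with a filter of 1 CPM (1.62), with no filter (1.70) and in sham libraries alone (2.10). The strand partner of miR-200a-3p, miR-200a-5p, gave 42 reads in all and at most 3.32 CPM, and the 5p strands of miR-200c, miR-141 and miR-429 were not analysed here.

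In count, 4 of the 6 members were called higher in striatum/thalamus than in cerebellum (fold above 1.5 and adjusted p under 0.05), beside 31.3% of the 438 miRNAs tested. The same 4 members, miR-200b-3p, miR-200b-5p, miR-200c-3p and miR-429-3p, were called higher in cortex than in cerebellum, beside 27.2% of the 438. Of the members called, 2 share the miR-200b hairpin and 3 lie in 1 cluster, so they are not separate observations. Between the forebrain regions only miR-200b-3p was called lower in cortex than in striatum/thalamus, where 24.2% of all miRNAs were called in that direction. Its log2 difference was -0.69 (SE 0.24, edgeR adjusted p = 0.0177), and 7 of 8 pups had the higher level in striatum/thalamus. The call was lost without pup 5 (-0.54) or pup 6 (-0.60) and in sham libraries alone (-0.44). The differences of miR-200c-3p (-0.72, 95% interval -1.50 to 0.06), miR-200b-5p (-1.07, -2.18 to 0.04), miR-429-3p (0.13, -0.83 to 1.08) and miR-200a-3p (0.33, -0.96 to 1.63) were not called. Without the cortex library of pup 2 miR-200c-3p was also called lower in cortex (-0.998), and without the striatum/thalamus libraries of pups 2 and 7 miR-200b-5p was (-1.42).

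**Figure D2:**
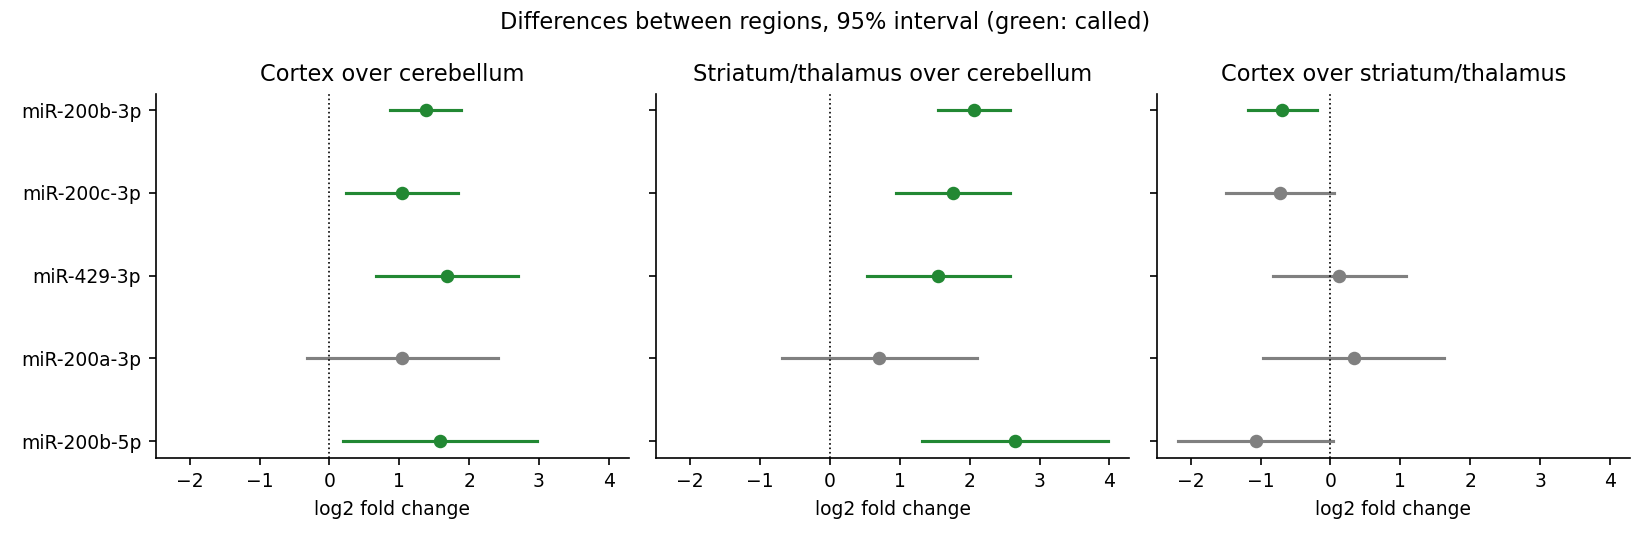
Log2 fold change between regions (x axis) for 5 members (y axis), with 95% intervals from the 24-library fit. Green marks called members: 4 in both comparisons with cerebellum, all to the right of 0, and miR-200b-3p alone, at -0.69, between the forebrain regions.

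The make-up of the family reads differed from library to library more than between regions. MiR-200b-3p made up 43.2% of family reads in cerebellum, 48.0% in striatum/thalamus and 43.8% in cortex. MiR-200c-3p made up 31.3%, 29.9% and 25.9%, and miR-429-3p 17.5%, 15.9% and 23.1%. Within striatum/thalamus the share of miR-200c-3p ran from 10.4% in sham pup 6 to 56.8% in HIBI pup 7. The ratio of miR-429-3p to miR-200b-3p reads, both from the chromosome 4 cluster, ran from 0 to 0.576 in striatum/thalamus and from 0.266 to 0.792 in cortex. Reads of 1 member are few in many libraries, so part of this spread is counting error.

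**Figure D3:**
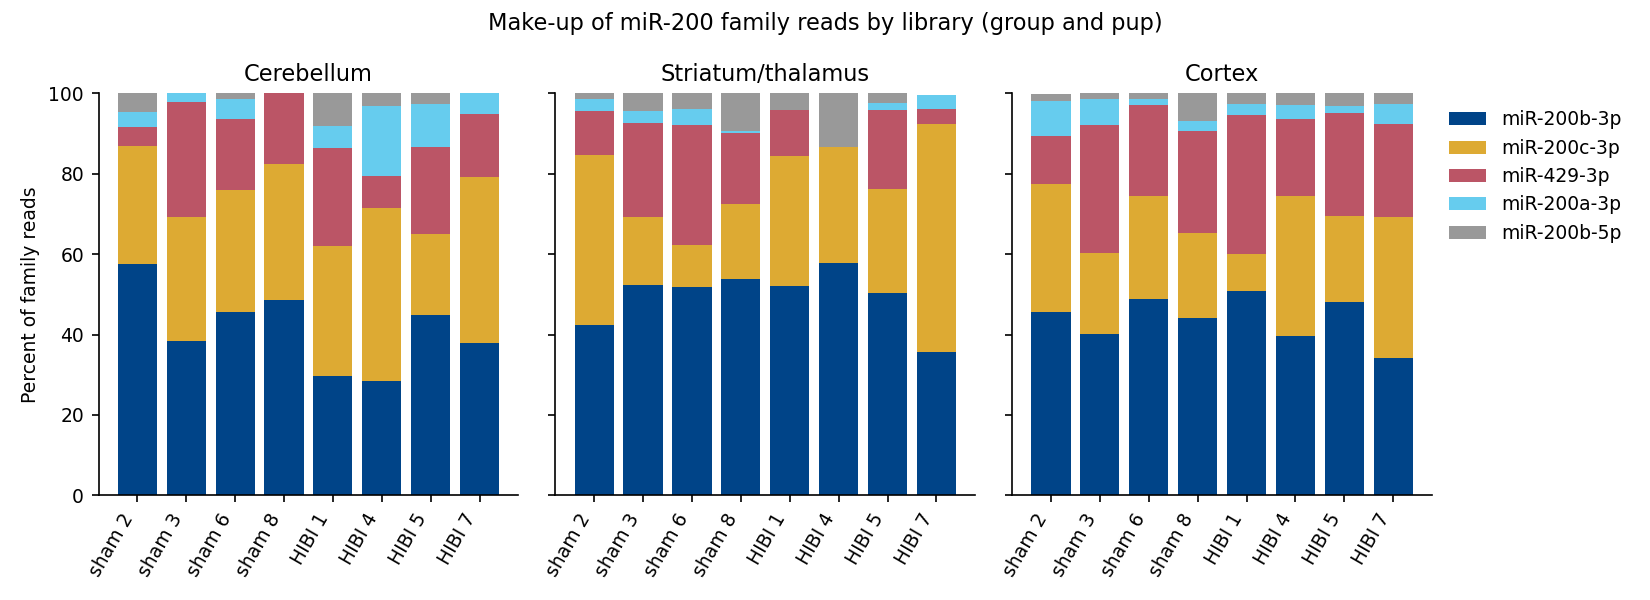
Share of family reads (y axis, percent) taken by each of 5 members in every library, by region, with group and pup on the x axis. MiR-200b-3p takes 28.6% to 57.9% of family reads in each library, and the miR-200c-3p share is highest, at 56.8%, in the striatum/thalamus of HIBI pup 7.

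HIBI and sham were compared within each region with the study's criteria for fold and p, a change of more than 1.5-fold and an unadjusted p under 0.05. The study also asks for an average above 10 CPM, and this was not asked of the members. MiR-200a-3p and miR-200b-5p were below it in every region and miR-429-3p in cerebellum (6.78 CPM), so calls of these there would not meet the study's criteria. By edgeR's quasi-likelihood test 0 of the 5 members that could be fitted were called in cerebellum, where 7.55% of the 437 miRNAs tested were called. In striatum/thalamus 0 were called, against 2.73% of 439. In cortex 1 was called, miR-200b-3p, against 3.64% of 412. DESeq2 gave 0, 0 and 1 calls in the same regions, and edgeR's exact test 1, 0 and 2. Over all miRNAs DESeq2 called 45 of 437, 19 of 439 and 13 of 412. The exact test called 41 of 437 in cerebellum and 16 of 439 in striatum/thalamus. Its total over all miRNAs in cortex is not reported here, so its 2 member calls there cannot be set against a share. For every member the HIBI and sham libraries overlapped in every region.

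In cortex all 5 members had lower fitted levels in HIBI than in sham. MiR-200b-3p was lower by the call rule, with a log2 fold change of -0.81 (SE 0.33, unadjusted p = 0.0308 and adjusted p = 0.847 by edgeR). In this fit it was the only miRNA of the 412 called lower in cortex (0.243%), while DESeq2 called 2 lower. The paper's own edgeR analysis also reports miR-410 as lower in cortex. An exact permutation test of the log2 levels of miR-200b-3p, 4 against 4, gave p = 0.114 (two-sided), where 0.0286 is the smallest p that the design allows. Its highest cortical value was that of sham pup 2 at 86.1 CPM, and the lowest sham value, 29.6 CPM in pup 8, lay inside the HIBI range of 23.8 to 33.5 CPM. Without pup 2 the log2 fold change was -0.43 and the call was lost, as it was without pup 5 (-0.82) or pup 7 (-0.70). The other fitted log2 fold changes were -1.55 (SE 0.79) for miR-200a-3p, -0.71 (SE 0.53) for miR-200c-3p, -0.50 (SE 0.30) for miR-429-3p and -0.39 (SE 0.58) for miR-200b-5p, and none of these was called. MiR-200a-3p was called lower without pup 6 (-1.91) or pup 8 (-1.86), both sham pups with low levels.

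In striatum/thalamus the members did not share a direction. MiR-429-3p had the largest fitted difference, -1.09 (95% interval -2.96 to 0.78), with 3 HIBI libraries below and HIBI pup 5 above the middle of the sham group. Without pup 5 the difference was -2.47 and was called. The striatum/thalamus library of pup 5 stood above the other 7 in choroid plexus and ciliated epithelium miRNAs (4703 CPM against 1897 to 3302 CPM), endocrine miRNAs (8898 CPM against 1810 to 7469 CPM) and mesenchyme miRNAs (178 CPM against 46.2 to 155 CPM). It stood below them in erythrocyte miRNAs (943 CPM against 1261 to 2642 CPM). Of the endocrine miRNAs, miR-7a-5p was highest there (6179 CPM), while miR-375-3p, at 513.5 CPM, was below HIBI pups 1 and 7 (557.1 and 752.8 CPM). The part of these marker levels in the result was not tested. MiR-200c-3p was at 0.43 (-0.87 to 1.73), and without sham pup 2 it was at 1.33 and was called, while without HIBI pup 7 it was at -0.02. MiR-200b-3p was at -0.23 (-0.93 to 0.48), miR-200a-3p at -0.81 (-2.97 to 1.36) and miR-200b-5p at -0.37 (-2.20 to 1.46). The intervals take in changes of over 1.5-fold in both directions for 4 of the 5 members, and that of miR-200b-3p does so on the lower side only.

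In cerebellum miR-200b-3p was at 7.18 to 9.80 CPM in 3 HIBI libraries and at 20.9 CPM in HIBI pup 5, against 16.9 to 21.3 CPM in the sham libraries. Its log2 fold change was -0.71 (95% interval -1.56 to 0.14) and was not called, but without pup 5 it was -1.16 and was called. The HIBI pup 5 library also stood above the other cerebellar libraries in the summed levels of the marker miRNAs of surface epithelium, endocrine cells, skeletal muscle, mesenchyme, endothelium and neurons, and below them in erythrocyte miRNAs (927 CPM against 1138 to 2366 CPM). Members of a list did not all go the same way. The endocrine miR-7a-5p was above the others there (2991 CPM), but miR-375-3p was below them (104 CPM against 137.6 to 298.8 CPM). The muscle miR-206-3p, at 271.1 CPM, was within their range of 257.8 to 546.8 CPM. The part of these in the miR-200b-3p result was not tested. MiR-200a-3p went the other way, with a log2 fold change of 1.61 (-0.21 to 3.43) on 29 reads in HIBI and 9 in sham. The other differences were -0.34 (-1.10 to 0.41) for miR-200c-3p, -0.40 (-1.81 to 1.00) for miR-429-3p and 0.73 (-1.93 to 3.38) for miR-200b-5p.

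**Figure D4:**
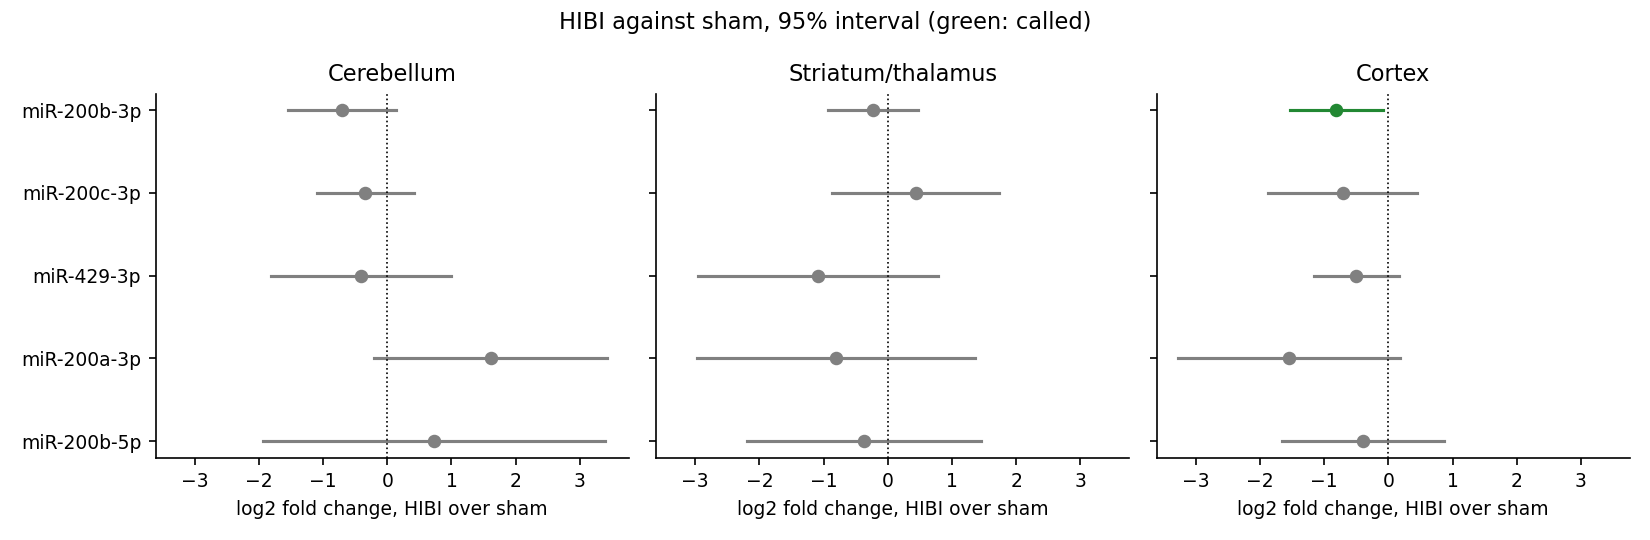
Log2 fold change of HIBI over sham (x axis) for 5 members (y axis) in each region, with 95% intervals from edgeR (n = 4 against 4). Green marks the 1 called member, miR-200b-3p in cortex at -0.81, and all other intervals cross 0.

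Whether injury acted differently in forebrain and cerebellum was asked with an interaction term over the 24 libraries. No member passed at an adjusted p under 0.05, and neither did any other of the 438 miRNAs (0%, with 69 at an unadjusted p under 0.05). MiR-200a-3p had the largest value, -2.74 on the log2 scale (SE 1.18, unadjusted p = 0.0292, adjusted p = 0.255 by edgeR), since it was higher in HIBI cerebellum and lower in HIBI forebrain on few reads. It was the only member at an unadjusted p under 0.05. The values of the other members were 0.25 for miR-200b-3p, 0.25 for miR-200c-3p, -0.37 for miR-429-3p and -1.04 for miR-200b-5p.

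The cortex of sham pup 2 was the library in which the family was high as a group. All 5 detected members were above the median of the 8 cortical libraries there, and 3 of them, miR-200a-3p, miR-200b-3p and miR-200c-3p, had their highest cortical value in it. MiR-429-3p and miR-200b-5p were second highest, after sham pups 3 and 8. The family sum of 188 CPM was 2.44 times the cortical median. The other cortical libraries lay between 60.8 and 122 CPM. No other library had all 5 detected members above the median of its region. The cortex of sham pup 3 had 4 of the 5 above it, with a family sum of 1.58 times the cortical median. Among the sham cortices, Dixon's test for a library far from the rest was not passed for the family sum (ratio 0.549) or for any member.

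In striatum/thalamus sham pup 2, sham pup 6 and HIBI pup 5 each had 4 of the 5 detected members above the region's median, with family sums of 1.42, 1.16 and 1.45 times the median. MiR-200c-3p was high in HIBI pup 7 (82.5 CPM) and sham pup 2 (78.4 CPM), but in HIBI pup 7 miR-429-3p was at 5.47 CPM and miR-200b-3p at 51.8 CPM. In sham pup 2 miR-200b-3p was also high (78.4 CPM) and miR-200a-3p was second highest (5.85 CPM). HIBI pup 7 stood above the other 7 libraries in surface epithelium miRNAs (84.6 CPM against 29.8 to 81.4 CPM). Of these, miR-205-5p was at 11.4 CPM (27 reads) there, and miR-203-3p, at 73.3 CPM, was below HIBI pup 5 (78.5 CPM). HIBI pup 7 stood below the others in skeletal muscle miRNAs (39.2 CPM against 52.7 to 140.9 CPM). Sham pup 2 was within the range of the others in surface epithelium miRNAs (45.1 CPM). It stood below them in mesenchyme miRNAs (46.2 CPM against 58.9 to 178 CPM). Its choroid plexus and ciliated epithelium miRNAs were also below the others (1897 CPM against 1927 to 4703 CPM). The part of these in the miR-200c-3p levels was not tested. HIBI pup 5 had the highest miR-200b-3p (94.9 CPM) and the second highest miR-429-3p (36.8 CPM), with miR-200c-3p at 48.9 CPM. Sham pup 6 had the highest miR-429-3p (45.2 CPM) and the lowest miR-200c-3p (15.7 CPM). MiR-200b-3p, miR-200c-3p and miR-429-3p each had their highest value in a different library of this region.

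Over all 24 libraries the deviations of log2 levels from the group means were compared between members, as a description. Pearson's r was 0.62 for miR-200a-3p with miR-200b-3p and 0.61 for miR-200a-3p with miR-200c-3p. It was 0.45 for miR-200b-3p with miR-429-3p, which share a cluster and a seed, 0.38 for miR-200b-3p with miR-200c-3p and 0.11 for miR-200c-3p with miR-429-3p. The 2 strands of the miR-200b hairpin were at -0.04. The libraries share pups and scaling, and counts of miR-200a-3p and miR-200b-5p are low.

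Of 432 other miRNAs with an average above 10 CPM, the 5 whose deviations were most like those of the family sum were miR-183-5p (r = 0.65), miR-182-5p (0.59), miR-488-3p (0.59), miR-152-3p (0.57) and miR-669l-5p (0.57), with n = 24. The median over the 432 was near 0 (-0.002) and the range -0.71 to 0.65. MiR-183 and miR-182 are made from 1 cluster with miR-96 and are known from sensory cells of the eye and the ear. Their levels across regions ran opposite to the family, with r = -0.62 for miR-183-5p and -0.65 for miR-182-5p, since both were highest in cerebellum.

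The likeness to this cluster rested in part on the cortex of sham pup 2. In its cortex the summed level of miR-183-5p, miR-96-5p and miR-182-5p was 294 CPM, against 31.0 to 91.1 CPM in the other 7 cortical libraries. MiR-182-5p was at 203 CPM there and miR-183-5p at 90.6 CPM. In striatum/thalamus the cluster was also highest in sham pup 2 (135 CPM), then in HIBI pups 7 (125 CPM) and 5 (112 CPM), and these were 3 of the 4 libraries with the highest family sum. The remaining library of the 4, sham pup 6, had a family sum of 151 CPM but the lowest cluster level of the region (34.8 CPM). Across the 16 forebrain libraries r was 0.70, and it was 0.54 without the cortex of pup 2. In cortex alone it was 0.84 (n = 8), or 0.53 without that library, and in cerebellum 0.13 (n = 8). Over the 24 libraries r fell from 0.62 to 0.41 without the 2 libraries farthest from the median, the cortices of sham pups 2 and 8. Among the other marker lists the erythrocyte miRNAs had an opposite relation of like size, with r = -0.59 over 24 libraries and -0.71 over the 16 forebrain libraries. Endocrine miRNAs were at 0.45, mesenchyme at 0.42, endothelium at 0.32, surface epithelium at 0.31 and neurons at 0.26 over the 24 libraries. Hindbrain (0.13), choroid plexus and ciliated epithelium (-0.02) and skeletal muscle (-0.09) miRNAs were nearest to 0.

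**Figure D5:**
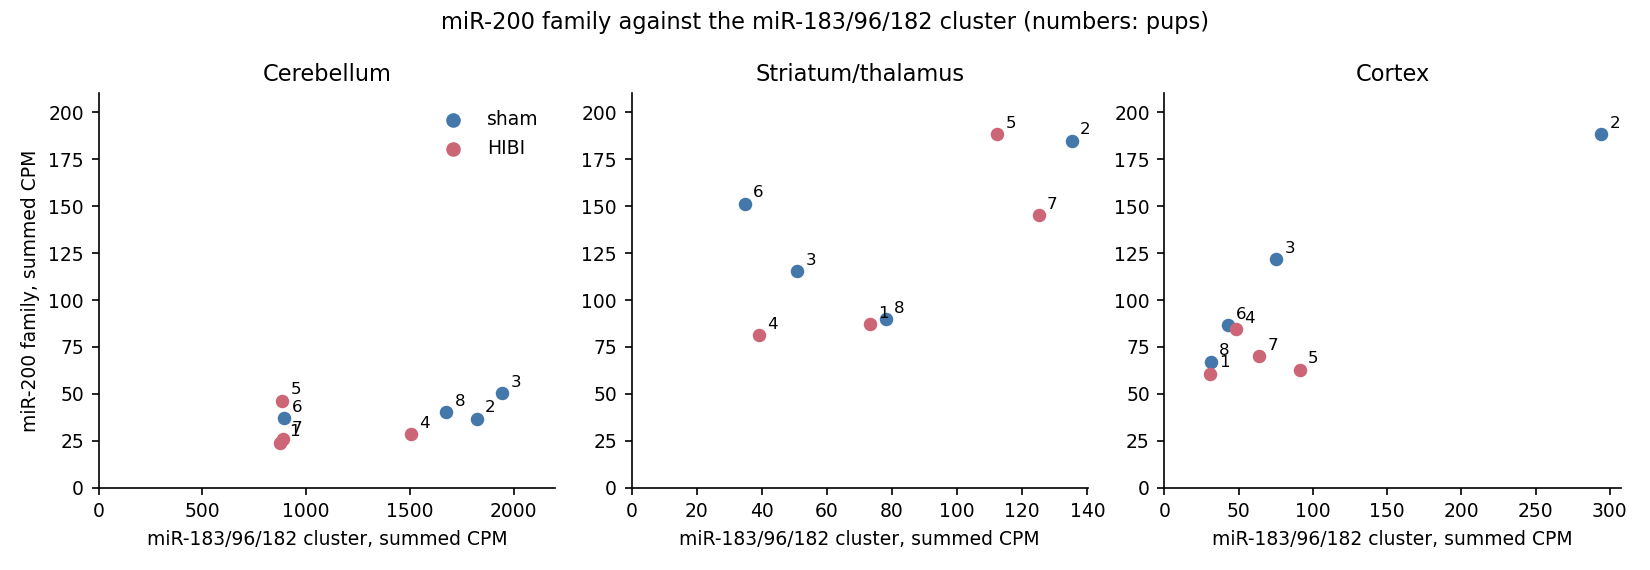
Summed CPM of the 6 miR-200 members (y axis) against summed CPM of miR-183-5p, miR-96-5p and miR-182-5p (x axis, scaled separately by region) in each library, with pup numbers beside the points. In cortex sham pup 2 stands alone at 294 and 188 CPM, and in cerebellum the cluster is at 876 to 1945 CPM with the family at 24.1 to 50.5 CPM.

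Marker miRNAs of other cell types were read in the same library of sham pup 2 cortex. The surface epithelium miRNAs miR-203-3p and miR-205-5p summed to 131 CPM there and to 67.5 to 121 CPM in the other cortical libraries. Nearly all of this was miR-203-3p (130.5 CPM). MiR-205-5p was at 0.897 CPM (2 reads) there and was not raised, since cortical libraries ran from 0 to 4.14 CPM for it. The strands of the endothelial miR-126a summed to 3728 CPM against 2158 to 3546 CPM. Erythrocyte miRNAs (731.6 CPM against 802 to 1110 CPM) and hindbrain miRNAs (37.2 CPM against 41.4 to 113 CPM) were below the others. Choroid plexus and ciliated epithelium, endocrine, muscle, mesenchyme and neuron miRNAs were within the range of the others. The part of any of these in the level of the miR-200 family was not tested.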

How the data were processed

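The authors prepared small RNA libraries from 200 ng RNA (NEXTFLEX kit, NextSeq 550), aligned reads to mature mouse miRNAs of miRBase with bowtie2, and deposited raw counts per miRNA for 8 libraries in each of 3 tables. Tool versions, the miRBase release and the handling of reads with several matches are not given in the sources used here. The deposited tables also hold the authors' own edgeR results, as log2 fold changes and log2 CPM and as p-values with false discovery rates, and these were not used. Of 1551 entries, 20 were not mouse and were left out (0.000156% of counts). Total counts were 1254185 to 3406624 per library.

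Counts were fitted in edgeR 4.0.16 (R 4.3.3) with TMM scaling and quasi-likelihood tests on miRNAs averaging above 10 CPM, plus all members whatever their level. HIBI and sham were compared within a region (4 against 4). Regions and the interaction were fitted over 24 libraries in 6 groups, with the injury groups weighted equally. P-values were Benjamini-Hochberg adjusted over all miRNAs tested. Exact permutation tests used log2(CPM + 1) over 70 arrangements. Alternatives were scaling by library size alone, DESeq2 1.42.0, other filters, edgeR's exact test, a replicate block for the pup, sham libraries alone and leaving out each pup. The main edgeR fits and the fits with a pup block were tested on simulated data, and the other alternatives were not. Poisson intervals and limits from a count of 0 cover counting error only. Replicates of every group differed by more than sampling noise. Libraries with the same pup number came from the same animal, per the labels. Deviations from group means, compared between regions of a pup over 435 miRNAs, had median correlations of 0.16, 0.27 and 0.19.

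The 6 members are named in full, marker lists are given as summed CPM, and the 5 other miRNAs named are those whose deviations were most like the family sum. The members and lists were chosen with earlier results of these data known. Hairpin annotation was GENCODE M21.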

Additional observations from a re-analysis of the deposited data

Results flagged for a closer look

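In 36 groups of 4 libraries (each of 5 members and the family sum, by region and injury), 3 had a library far from the rest by Dixon's test at the 95% level. Chance puts about 1 in 20 such groups past that level.

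MiR-200b-3p in the striatum/thalamus of HIBI pup 5 was at 94.9 CPM (196 reads, 95% Poisson interval 82.1 to 109 CPM), and the other 3 HIBI libraries were at 45.4 to 51.8 CPM. MiR-200c-3p in the striatum/thalamus of sham pup 2 was at 78.4 CPM (134 reads, 65.7 to 92.9 CPM), and the other 3 sham libraries were at 15.7 to 19.6 CPM. MiR-429-3p in the cortex of HIBI pup 1 was at 21.0 CPM (38 reads, 14.9 to 28.8 CPM). The other 3 HIBI libraries were at 16.1 to 16.3 CPM, inside that counting interval.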

How the results depend on the processing

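The 4 members called higher in striatum/thalamus than in cerebellum were called under all 16 alternatives. For cortex against cerebellum the count was 3 or 4 under the 6 settings that left out no single pup or library, with a range of 2 to 4 when a pup or library was left out. The member lost was miR-200b-5p with a filter of 1 CPM and with no filter, and in sham libraries alone miR-200b-5p and miR-200c-3p were lost and miR-200a-3p was gained. For cortex against striatum/thalamus it was 0 with a filter of 1 CPM, with no filter and in sham libraries alone, 2 without the striatum/thalamus libraries of pups 2 and 7, and 0 to 2 over the left-out pups. For HIBI against sham, the count in cerebellum was 1 by edgeR's exact test (miR-200a-3p, with 41 of 437 miRNAs called) and 0 to 1 over the left-out pups. In striatum/thalamus it was 1 without a filter (miR-429-3p, with 54 of 1265 miRNAs called) and 0 to 1 over the left-out pups. In cortex it was 3 without a filter (miR-200a-3p, miR-200b-3p and miR-200c-3p), 2 by edgeR's exact test (miR-200a-3p and miR-200b-3p) and 0 to 2 over the left-out pups. The totals over all miRNAs for these cortex settings are not reported here, so the counts stand without a share beside them. The interaction stayed at 0 members under its 15 alternatives (DESeq2 gave no adjusted p for miR-200a-3p), and the exact permutation tests gave 0 of 15 at p under 0.05 with either scaling and pseudocount. The settings without the cortex library of pup 2 and without the striatum/thalamus libraries of pups 2 and 7 were chosen after seeing the data. The cause of these changes was not tested.

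Directions turned only for differences that were not called. MiR-429-3p between cortex and striatum/thalamus was -0.22 in sham libraries alone, -0.052 without the striatum/thalamus libraries of pups 2 and 7, and -0.060 to 0.83 over the left-out pups. MiR-200a-3p between cortex and striatum/thalamus ran from -0.091 to 0.67 when 1 pup or the cortex library of pup 2 was left out, and was 0.87 without the striatum/thalamus libraries of pups 2 and 7. For HIBI against sham, miR-429-3p in cerebellum ran from -0.88 to 0.15, and in striatum/thalamus miR-200b-5p ran from -1.09 to 0.088 and miR-200c-3p from -0.021 to 1.33. The interaction of miR-200c-3p ran from -0.044 to 1.06.

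With the pup as a replicate block, since same-numbered libraries were paired by animal, the region comparisons gave 4, 4 and 1 called members, as without it, and the interaction 0. Scaling by library size alone moved the median log2 fold change of all miRNAs in cerebellum from 0.10 to 0.27, and the share of calls that were higher in HIBI from 45.5% to 80.8%. The members' calls there stayed at 0. Depth limits the low members: 1 read was up to 0.797 CPM, and 0 reads were found for miR-200a-3p in 3 libraries and for miR-200b-5p in 4.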
